A study of Mus musculus with 9 samples.

Results

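The colony-stimulating factor receptor genes are Csf1r, Csf2ra, Csf2rb, Csf2rb2 and Csf3r, which encode the receptors for M-CSF, GM-CSF and G-CSF. They were taken from the deposited table by gene symbol, and each of the 5 symbols matched 1 of its 56691 genes. RNA was sequenced from RAW264.7, an established mouse macrophage line that forms osteoclast-like cells when given RANKL, the cytokine that drives osteoclast differentiation. The control group was left untreated, the RANKL group received RANKL, and the RANKL + UD group received RANKL with uridine (UD), a pyrimidine nucleoside. Each group held 3 libraries from cells cultured for 3 days, and the uridine dose of this experiment is not given in the sources used here. All groups are cultures of the same line, so they carry no bone matrix, stroma or other cells of a marrow, and the labels name no added M-CSF.

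M-CSF acts through CSF1R, a receptor tyrosine kinase that keeps macrophages and their precursors alive and that osteoclast formation in bone needs beside RANKL. The GM-CSF receptor joins a ligand-binding alpha chain, CSF2RA, to the common beta chain CSF2RB, which also serves the IL-3 and IL-5 receptors and signals through JAK2 and STAT5. Mice carry a duplicate of the beta chain gene, Csf2rb2, whose product works with the IL-3 receptor. CSF3R, the G-CSF receptor, is best known from neutrophils and their precursors.

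Csf2rb and Csf2rb2 are so alike that some reads can match both. In the GRCm38 annotation of GENCODE M21 their coding sequences matched at 2505 of 2631 aligned bases (95.2%), and the longest run without a difference was 242 bases. Of the 150-base windows of the Csf2rb transcript, 165 of 4615 (3.58%) occurred unchanged in Csf2rb2, and 165 of 4591 (3.59%) of the Csf2rb2 windows in Csf2rb, for a library read length of 150 bases. How reads that match both genes were counted is not given in the sources used here, so the split between these genes is uncertain by what such reads add. The stretch around the longest run is shown because the opposite changes of these genes in RANKL rest on telling them apart. It covers coding positions 2071 to 2336 within 1 exon, at chr15:78348565-78348830 of GRCm38 on the plus strand for Csf2rb and chr15:78284618-78284883 on the minus strand for Csf2rb2, and capitals mark the 4 bases that differ.
Csf2rb: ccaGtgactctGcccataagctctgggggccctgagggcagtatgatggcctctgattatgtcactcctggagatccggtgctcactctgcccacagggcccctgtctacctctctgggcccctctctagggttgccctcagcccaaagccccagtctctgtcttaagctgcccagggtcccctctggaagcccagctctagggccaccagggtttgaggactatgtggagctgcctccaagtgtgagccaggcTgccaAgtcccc
Csf2rb2: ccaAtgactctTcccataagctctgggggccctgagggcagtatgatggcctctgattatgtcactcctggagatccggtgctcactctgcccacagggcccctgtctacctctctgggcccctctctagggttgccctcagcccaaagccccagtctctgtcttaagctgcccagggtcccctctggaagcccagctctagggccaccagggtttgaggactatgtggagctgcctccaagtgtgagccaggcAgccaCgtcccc

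The promoters of Csf2ra, Csf2rb2 and Csf3r matched the RefSeq table of GRCm38.p6, as 3 of the 5 genes. Entries for Csf1r and Csf2rb were not matched. They are shown because Csf2rb2 changed in the opposite direction to Csf2ra and Csf3r in RANKL. The 250 bases before each start are chr19:61228419-61228668 on the minus strand for Csf2ra, chr15:78305722-78305971 on the minus strand for Csf2rb2 and chr4:126024409-126024658 on the plus strand for Csf3r. Capitals mark GAGGAA on either strand, the core letters bound by PU.1, a transcription factor of macrophages.
Csf2ra: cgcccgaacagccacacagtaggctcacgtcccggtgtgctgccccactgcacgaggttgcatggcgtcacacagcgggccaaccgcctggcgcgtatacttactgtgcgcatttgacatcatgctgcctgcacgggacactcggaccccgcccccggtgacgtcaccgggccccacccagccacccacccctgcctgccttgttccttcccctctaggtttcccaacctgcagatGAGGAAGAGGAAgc
Csf2rb2: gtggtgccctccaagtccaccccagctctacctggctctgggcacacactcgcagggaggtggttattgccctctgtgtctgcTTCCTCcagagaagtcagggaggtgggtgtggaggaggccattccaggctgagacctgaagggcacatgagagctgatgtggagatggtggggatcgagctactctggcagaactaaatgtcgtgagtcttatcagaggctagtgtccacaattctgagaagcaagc
Csf3r: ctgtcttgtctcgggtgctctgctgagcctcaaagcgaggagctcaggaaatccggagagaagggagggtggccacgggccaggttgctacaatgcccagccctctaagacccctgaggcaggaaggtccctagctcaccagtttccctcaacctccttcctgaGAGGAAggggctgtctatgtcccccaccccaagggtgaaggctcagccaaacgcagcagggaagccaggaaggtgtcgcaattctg

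GAGGAA occurred in all 3 promoters, 2 times in Csf2ra and 1 time in each of the others, and in 23.3% of the 32851 promoters of the table. The STAT letters TTCNNNGAA occurred in Csf2rb2 only of the 3, 15 bases before its start, and in 7.02% of all promoters. The AP-1 letters TGANTCA occurred in none of the 3 and in 6.75% of all promoters. The NFAT core letters GGAAA, which share GGAA with GAGGAA, occurred 1 time in Csf2ra, 2 times in Csf3r and 0 times in Csf2rb2, and in 55.6% of all promoters. Both strands were searched, and a match of letters says nothing of binding.

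The table gives read counts and FPKM, which divides a gene's reads by its exonic length and by the total of the library, so FPKM levels are compared between genes and counts are used for tests. Totals ran from 15951800 to 19746862 reads per library (median 19182637). Within each group the libraries were further apart than sampling noise (chi-square per degree of freedom 3.00 to 9.75), and no pair was taken for 1 library. The labels call each library a replicate biosample without saying how the cultures were kept apart, so p-values measure the spread between these libraries, which may be technical. The deposited coordinates carry no build in the table and match GRCm38 for 0 of the 5 genes, although mm10 is the build named in the submitters' processing notes. In those coordinates Csf1r (ENSMUSG00000024621) spans chr18:61233670-61265221 and Csf3r (ENSMUSG00000028859) chr4:125918343-125938233, both on the plus strand. Csf2ra (ENSMUSG00000059326) spans chr19:61212395-61216867 on the minus strand. Csf2rb2 (ENSMUSG00000071714, chr15:78166707-78189921, minus strand) and Csf2rb (ENSMUSG00000071713, chr15:78209952-78238047, plus strand) lie head to head, with 20030 bases and 0 genes between them.

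Csf1r was by far the most abundant of these receptor transcripts, and RANKL lowered it. Its FPKM was 332, 343 and 383 in the control libraries, 181, 189 and 185 in RANKL, and 159, 172 and 170.4 in RANKL + UD. The 3 groups did not overlap, with control highest and RANKL + UD lowest. In RANKL Csf1r fell by 0.84 on the log2 scale against control (SE 0.0517, 1.79-fold lower, quasi-likelihood test of edgeR, Benjamini-Hochberg adjusted p = 8.856e-12). In RANKL + UD it fell by 0.23 against RANKL (SE 0.0515, 1.18-fold lower, edgeR adjusted p = 0.001065). This smaller difference was not called with limma on log2(FPKM + 1), where it was -0.148 (adjusted p = 0.0996), and over 15 alternatives its adjusted p ran from 4.84e-06 to 0.109. With libraries scaled by their totals only, as FPKM is, edgeR also gave -0.148 (adjusted p = 0.0271), which was called. Hmgxb3, on the opposite strand, overlaps the 3' end of Csf1r, and its FPKM means of 3.63, 3.09 and 3.44 in the 3 groups are small beside those of Csf1r.

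**Figure D1:**
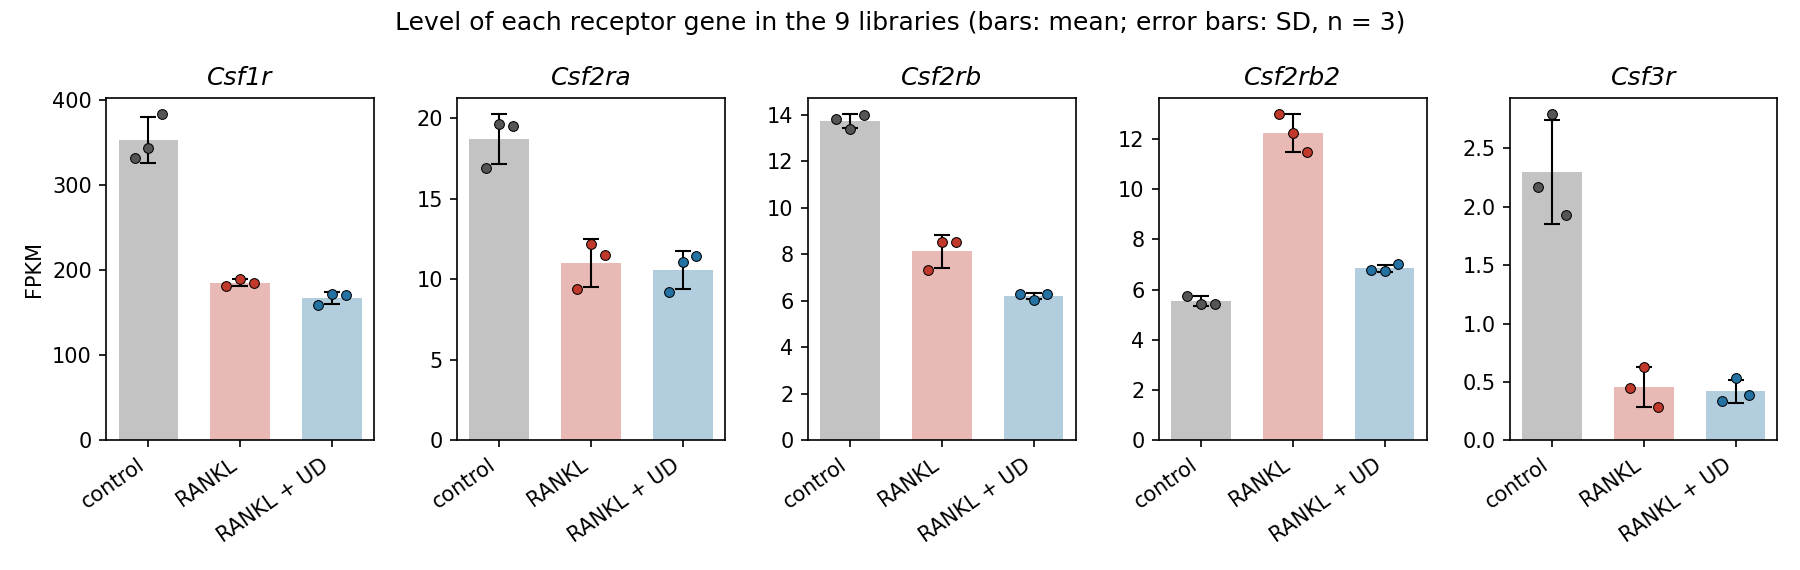
FPKM of the 5 receptor genes (y axis of each panel, starting at 0 and scaled to its gene) in control, RANKL and RANKL + UD. Points are the 3 libraries of a group, bars the mean and error bars the SD. Csf2rb2 is highest in RANKL, at 11.5 to 13.0 FPKM, while the other 4 genes are highest in control.

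The GM-CSF receptor alpha chain gene Csf2ra was also lower with RANKL. Its FPKM was 16.9, 19.65 and 19.5 in control, 9.37, 12.2 and 11.5 in RANKL, and 9.23, 11.1 and 11.45 in RANKL + UD. Control lay above both other groups, and RANKL and RANKL + UD overlapped. Csf2ra fell by 0.68 in RANKL against control on the log2 scale (SE 0.0973, edgeR adjusted p = 4.291e-06). The difference of RANKL + UD from RANKL was -0.14 (SE 0.1005, 95% interval -0.34 to 0.05, edgeR adjusted p = 0.2786) and was not called.

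The common beta chain gene Csf2rb fell at both steps. Its FPKM was 13.8, 13.4 and 14.0 in control, 7.31, 8.54 and 8.54 in RANKL, and 6.28, 6.05 and 6.29 in RANKL + UD. The 3 groups did not overlap. On the log2 scale Csf2rb fell by 0.67 in RANKL against control (SE 0.0637, 1.59-fold lower, edgeR adjusted p = 1.152e-08). It fell by 0.475 in RANKL + UD against RANKL (SE 0.0665, 1.39-fold lower, edgeR adjusted p = 8.669e-06).

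Its duplicate Csf2rb2 went the other way with RANKL and came part of the way back with UD. Its FPKM was 5.76, 5.41 and 5.42 in control, 13.0, 12.2 and 11.5 in RANKL, and 6.78, 6.74 and 7.00 in RANKL + UD. All RANKL libraries lay above all others, and RANKL + UD lay above control. Csf2rb2 rose by 1.23 on the log2 scale in RANKL against control (SE 0.0746, 2.35-fold, edgeR adjusted p = 6.786e-12). It fell by 0.92 in RANKL + UD against RANKL (SE 0.0731, 1.90-fold lower, edgeR adjusted p = 3.552e-09). A difference of 0.31 from control was left in RANKL + UD (SE 0.0771, 1.24-fold, edgeR adjusted p = 0.001943).

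Csf3r was the lowest of the 5, and reached 1 FPKM in the 3 control libraries only. Its FPKM was 2.17, 2.79 and 1.93 in control, 0.45, 0.63 and 0.29 in RANKL, and 0.34, 0.53 and 0.39 in RANKL + UD, from 132, 199 and 111, 32, 44 and 20, and 24, 31 and 24 reads. Control was above every other library, and RANKL and RANKL + UD overlapped. Csf3r fell by 2.24 in RANKL against control (SE 0.252, 4.74-fold lower, edgeR adjusted p = 1.382e-07). Since it passed the filter through control alone, this test was bound to compare it where control is high. In a fit without the filter the change was -2.23 and was also called. That fit gave Csf1r an edgeR adjusted p of 4.81e-74 in RANKL against control, where the main fit gave 8.856e-12. Its p-values are therefore not comparable with those of the main fit, and its call of Csf3r adds no independent support. At these counts its difference of -0.23 between RANKL + UD and RANKL could not be told from 0 (95% interval -0.83 to 0.37, edgeR adjusted p = 0.5959).

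Between RANKL and control all 5 genes were called at an adjusted p under 0.05, 1 higher and 4 lower, where 57.6% of the 11995 genes tested were called, 27.3% higher and 30.2% lower. Csf3r entered the test through its control libraries alone, so its presence in this count follows from the filter. The same holds for Csf3r in the counts below of RANKL + UD against control and of groups without overlap. Between RANKL + UD and RANKL, 3 of the 5 were called, all lower, where 38.8% of all genes were called, 18.6% higher and 20.2% lower. When libraries were scaled by their totals only, and not by TMM, the lower calls made up 36.9% of genes in RANKL against control and 14.2% in RANKL + UD against RANKL, and no call of a receptor gene changed. Between RANKL + UD and control, which uses the same libraries again, all 5 were called, 1 higher and 4 lower, where 54.0% of all genes were called, 26.7% higher and 27.3% lower. There the log2 changes were -1.08 for Csf1r, -0.82 for Csf2ra, -1.14 for Csf2rb and -2.47 for Csf3r (edgeR adjusted p = 1.76e-13, 3.854e-07, 3.237e-12 and 5.697e-08). Libraries of the 2 groups did not overlap for 5, 3 and 5 receptor genes in the 3 comparisons, against 61.7%, 51.7% and 59.9% of all genes.

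**Figure D2:**
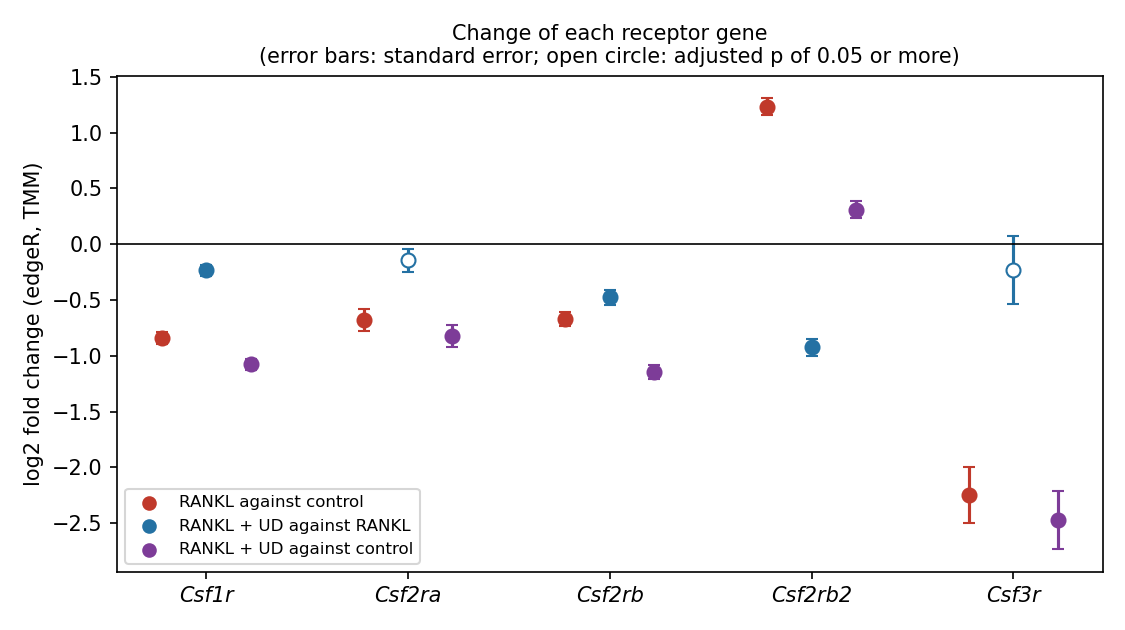
Log2 fold change (y axis, edgeR with TMM scaling) of each receptor gene in RANKL against control, RANKL + UD against RANKL and RANKL + UD against control. Error bars are the standard error and open circles were not called at an adjusted p under 0.05. Csf2rb2 is the member above 0 in RANKL against control, at 1.23, and it is at -0.92 in RANKL + UD against RANKL.

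The order of the levels by deposited FPKM was as follows. In control the means of FPKM ran from Csf1r (353 ± 27.1, SD, n = 3) through Csf2ra (18.7 ± 1.54), Csf2rb (13.7 ± 0.294) and Csf2rb2 (5.53 ± 0.199) to Csf3r (2.30 ± 0.444), and no neighbours overlapped. In RANKL, Csf2rb2 (12.2 ± 0.740) came second to Csf1r (185 ± 4.21), ahead of Csf2ra (11.01 ± 1.46), Csf2rb (8.13 ± 0.710) and Csf3r (0.457 ± 0.170). The libraries of Csf2rb2 and Csf2ra overlapped there, so their order is not resolved. In RANKL + UD, Csf2ra (10.6 ± 1.19) was again above Csf2rb2 (6.84 ± 0.140), followed by Csf2rb (6.21 ± 0.136) and Csf3r (0.420 ± 0.0985), with Csf1r at 167 ± 6.83. The places of Csf2ra and Csf2rb against Csf2rb2 depend on the length used. Divided by the longest coding transcript (1849 bases in place of the deposited 2871), Csf2ra had 14.55 to 18.9 in RANKL, above the 11.5 to 13.0 of Csf2rb2 without overlap, so Csf2rb2 was then not second. For Csf2rb (4900 bases in place of 7277) the means were 20.4, 12.1 and 9.21, which put it above Csf2rb2 in RANKL + UD and among the Csf2rb2 libraries in RANKL. With these lengths Csf1r, Csf2ra and Csf3r held the first, second and last places by mean in all 3 groups. This length was chosen after the data had been seen, and it leaves the fold of each gene between groups as it is.

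Csf1r made up 89.7% of the FPKM summed over the 5 genes in control, 85.3% in RANKL and 87.4% in RANKL + UD. Csf2rb2 had 1.41% (SD 0.139), 5.64% (SD 0.448) and 3.58% (SD 0.145) of that sum, with no overlap between groups. The sum itself was 393 ± 27.9 in control, 217 ± 5.96 in RANKL and 191 ± 8.03 in RANKL + UD (SD, n = 3). Sum and shares rest on the deposited lengths and were not computed with the longest coding transcripts.

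The Csf2rb pair was also followed as a ratio within each library, which no scaling between libraries can move. The FPKM of Csf2rb2 over that of Csf2rb was 0.417, 0.404 and 0.388 in control, 1.77, 1.43 and 1.35 in RANKL, and 1.08, 1.11 and 1.11 in RANKL + UD. Control was lowest and RANKL highest, without overlap. The size of this ratio rests on the deposited lengths, while its fold between groups does not. The log2 ratio was 1.90 higher in RANKL than in control and 0.45 lower in RANKL + UD than in RANKL, each with p = 0.1 in a two-sided exact permutation test, the smallest that 3 against 3 libraries allow (0.167 after adjustment over the 15 ratio comparisons made). Reads from stretches like the printed one can match both genes, and how they were counted is not known, so the counts of both genes were added as well. The sum does not recover such reads if they were left out of the counts. Summed, they fell by 0.02 in RANKL against control on the log2 scale (edgeR adjusted p = 0.773, not called) and by 0.68 in RANKL + UD against RANKL (edgeR adjusted p = 1.57e-09). Of the summed reads, Csf2rb2 held 21.4%, 20.8% and 20.2% in control, 53.6%, 48.3% and 46.7% in RANKL, and 41.3%, 42.05% and 42.04% in RANKL + UD. Scaled by library totals alone, in CPM, the reads as a share of all counted reads brought to a common total, the sum was 123 to 128 in control, 115 to 120.1 in RANKL and 76.0 to 78.9 in RANKL + UD, without overlap, so whether the pair's total differed between control and RANKL depends on the scaling.

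**Figure D3:**
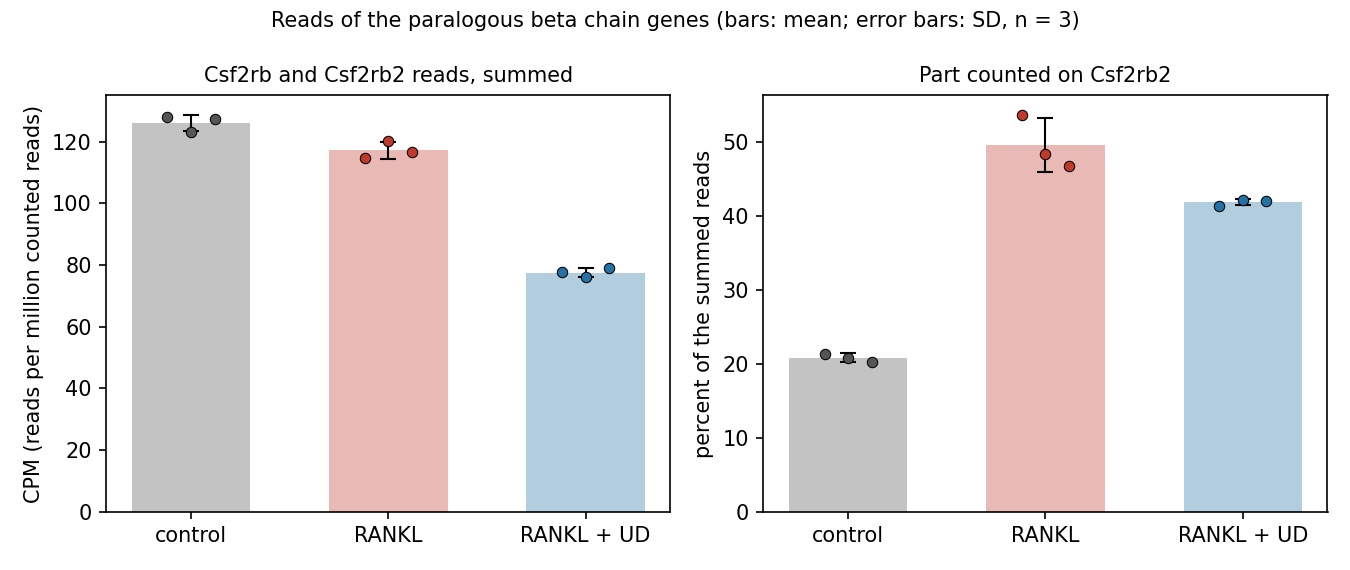
Reads of Csf2rb and Csf2rb2 added together, in CPM (left, y axis from 0) and the percent of them counted on Csf2rb2 (right, y axis from 0). Points are libraries, bars means and error bars the SD. The sum is 115 to 120.1 CPM in RANKL and 76.0 to 78.9 CPM in RANKL + UD, and the Csf2rb2 part is 46.7% to 53.6% in RANKL against 20.2% to 21.4% in control.

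The other ratios moved less. Csf2rb over Csf2ra, the beta chain against the alpha chain of the GM-CSF receptor, differed by 0.01 in log2 between RANKL and control (exact permutation p = 1) and was 0.33 lower in RANKL + UD than in RANKL, without overlap (exact p = 0.1). Csf1r over Csf2rb was 0.24 higher in RANKL + UD than in RANKL (exact p = 0.1, no overlap). Csf1r over Csf2ra differed by -0.16 between RANKL and control and by -0.09 between RANKL + UD and RANKL, with overlapping libraries (exact p = 0.2 and 0.5). Csf3r over Csf1r was 1.46 lower in RANKL than in control (exact p = 0.1), with no overlap between the groups. No ratio can pass 0.05 in this design.

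The ligands of these receptors were hardly transcribed, and none of the 6 entered the test. Csf1, which encodes M-CSF, had 0.08 to 0.24 FPKM over the 9 libraries, and Csf2, which encodes GM-CSF, had 0 to 0.19. Il34, the second ligand of CSF1R, had 0 to 1 reads per control library, 7 to 17 in RANKL and 4 to 13 in RANKL + UD. Csf3, which encodes G-CSF, had 10 to 19 reads in control, 0 to 1 in RANKL and 2 to 3 in RANKL + UD. In a fit without the filter, Il34 was higher and Csf3 lower in RANKL than in control (edgeR adjusted p = 9.4e-05 and 5.52e-05), and neither was called between RANKL + UD and RANKL (0.758 and 0.179). No fold is given, since 1 group of each is at or under 3 reads. As said under Csf3r, p-values without the filter are not comparable with those of the main fit. Il3 was listed at 0 throughout, and Il5 at 0 in all but 1 library, which had 2 reads.

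The partner chains were not detected at this depth. Il3ra and Il5ra, the alpha chains that use the beta chains for IL-3 and IL-5, were listed at 0 reads in all 9 libraries, which allows up to 3 reads in each. Of the receptor tyrosine kinases most like CSF1R, Flt3 had 0 reads, Kit had 0 to 3 and Pdgfra had 0 to 6 reads per library. Pdgfrb, the neighbour of Csf1r on its chromosome with 15536 bases and 0 genes between them, had 0.60, 0.83 and 1.14 FPKM in control, 0.11, 0.13 and 0.08 in RANKL, and 0.10, 0.06 and 0.10 in RANKL + UD. It was under the filter, and without it Pdgfrb fell by 2.89 in RANKL against control on the log2 scale (SE 0.344, edgeR adjusted p = 5.65e-16). This p-value too is not comparable with those of the main fit.

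Other genes of the receptor system were listed as ligands, partner chains, related kinases, signalling and feedback genes, myeloid transcription factors and shedding genes, 62 in all, of which 45 were tested. In RANKL against control 7 rose, 32 fell and 6 were not called, where 57.6% of all tested genes were called (30.2% lower), with a median log2 change of -0.43 where that of all tested genes was -0.0274. In RANKL + UD against RANKL 5 rose, 23 fell and 17 were not called, where 38.8% of all were called (20.2% lower), and the median was -0.20 (all genes 0.00497). With scaling by library totals only, 7 rose and 16 fell there. With limma on log2(FPKM + 0.1) the latter calls were 17 in place of 28.

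Of the 9 genes of the JAK-STAT arm, the route of the beta chains and CSF3R, 2 rose and 5 fell in RANKL, beside the 57.6% called among all tested genes. Stat5a, a main transducer of the GM-CSF receptor, had 3.34, 3.15 and 3.39 FPKM in control, 1.74, 2.18 and 2.05 in RANKL, and 2.68, 2.65 and 2.94 in RANKL + UD. It fell by 0.64 in RANKL on the log2 scale (edgeR adjusted p = 1.662e-05) and rose by 0.39 in RANKL + UD against RANKL (edgeR adjusted p = 0.005327). Gab2, a docking protein bound by the beta chain complex, rose by 0.80 and then fell by 0.44 (edgeR adjusted p = 3.458e-10 and 5.829e-06), the same 2 directions as Csf2rb2. Jak2, the kinase held by the beta chain, rose by 0.29 in RANKL (edgeR adjusted p = 0.0004632), and Tyk2, another Janus kinase, fell by 0.43 (edgeR adjusted p = 8.196e-06). In RANKL + UD against RANKL, 2 rose and 4 fell, among them the adaptor Shc1 (-0.23) and the phosphatase Ptpn11 (0.18). Of all tested genes 38.8% were called there (20.2% lower). With scaling by library totals 2 rose and 2 fell.

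Of 15 tested genes of CSF1R signalling, 3 rose and 11 fell in RANKL, where 57.6% of all tested genes were called (30.2% lower). In RANKL + UD against RANKL 3 rose and 8 fell, where 38.8% of all were called (20.2% lower). There 5 rose and 5 fell with scaling by library totals, and 4 and 4 with limma on log2(FPKM + 1). Cblb, a ubiquitin ligase, and Dok1, an adaptor that dampens kinase signals, rose by 1.11 and 0.86 in RANKL and fell by 0.75 and 0.72 in RANKL + UD against RANKL (edgeR adjusted p of at most 1.617e-06). The PI3K subunit genes Pik3cd and Pik3r1 fell by 1.09 and 0.44 in RANKL on the log2 scale and rose by 0.30 and 0.26 in RANKL + UD against RANKL (edgeR adjusted p = 0.003344 and 0.000882 for the rises).

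Of 7 listed genes of receptor feedback and STAT5 response, 4 were tested and the others were under the filter. All 4 fell in RANKL, where 57.6% of all tested genes were called (30.2% lower). Socs3, an inhibitor of cytokine receptor signalling that acts on CSF3R, had 8.52, 8.60 and 6.87 FPKM in control and 0.66 to 1.16 in the other 6 libraries, and fell by 3.40 in RANKL on the log2 scale (edgeR adjusted p = 1.49e-13). Pim1, a kinase gene induced by STAT5, fell by 0.64 in RANKL and by 0.69 in RANKL + UD against RANKL, and the adaptor gene Sh2b3 fell by 0.27 and 0.26. Osm, a cytokine gene, fell by 0.96 in RANKL (edgeR adjusted p = 0.0116), but its groups overlapped and the call was lost without control replicate 1 (-0.82) or RANKL replicate 1 (-0.61). In RANKL + UD against RANKL, 0 rose and 2 fell, where 38.8% of all tested genes were called (20.2% lower).

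The myeloid transcription factors had the lowest median of these lists, -1.35 in RANKL against control, with 9 of 10 tested genes falling. Over all tested genes the median was -0.0274, and 57.6% were called (30.2% lower). Fli1, an ETS family factor, had 30.5, 30.65 and 30.2 FPKM in control, 7.42, 6.12 and 6.61 in RANKL, and 5.90, 6.45 and 6.39 in RANKL + UD, and fell by 2.09 in RANKL on the log2 scale (edgeR adjusted p = 7.223e-16). Klf4, a zinc finger factor of monocytes, fell by 1.27 in RANKL and 1.11 in RANKL + UD against RANKL, and Cebpb by 0.41 and 0.90. The Cebpb call in RANKL against control was lost without control replicate 2 or 3 or RANKL replicate 1 or 3 (-0.42 to -0.26), and with DESeq2 or limma. Spi1, which encodes PU.1, was the gene of this list that rose, with 72.5, 81.9 and 93.2 FPKM in control, 113, 122.5 and 128 in RANKL, and 95.0, 99.0 and 104 in RANKL + UD. It rose by 0.64 and then fell by 0.37 (edgeR adjusted p = 6.727e-08 and 0.0001831). These are the directions of Csf2rb2, and also of all 6 tested osteoclast markers. A link between Spi1 and any receptor gene was not tested.

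Of the 7 genes of receptor shedding and cleavage, 1 rose and 3 fell in RANKL, a share near the 57.6% called among all tested genes. Adam17, the protease that sheds CSF1R from the cell surface, had 75.3, 76.9 and 77.6 FPKM in control, 38.1, 36.9 and 34.4 in RANKL, and 37.0, 36.6 and 38.1 in RANKL + UD. It fell by 0.98 in RANKL on the log2 scale (edgeR adjusted p = 1.72e-13) and its difference of -0.06 between RANKL + UD and RANKL was not called. Rhbdf2, which encodes a partner of ADAM17, fell by 0.55 and 0.45, and the gamma-secretase subunit gene Psenen rose by 0.28 in RANKL. In RANKL + UD against RANKL 0 rose and 2 fell, the other being Ncstn (-0.16, edgeR adjusted p = 0.0413), whose call was lost on leaving out any 1 of the 6 libraries (-0.18 to -0.13). Of all tested genes 38.8% were called there (20.2% lower).

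**Figure D4:**
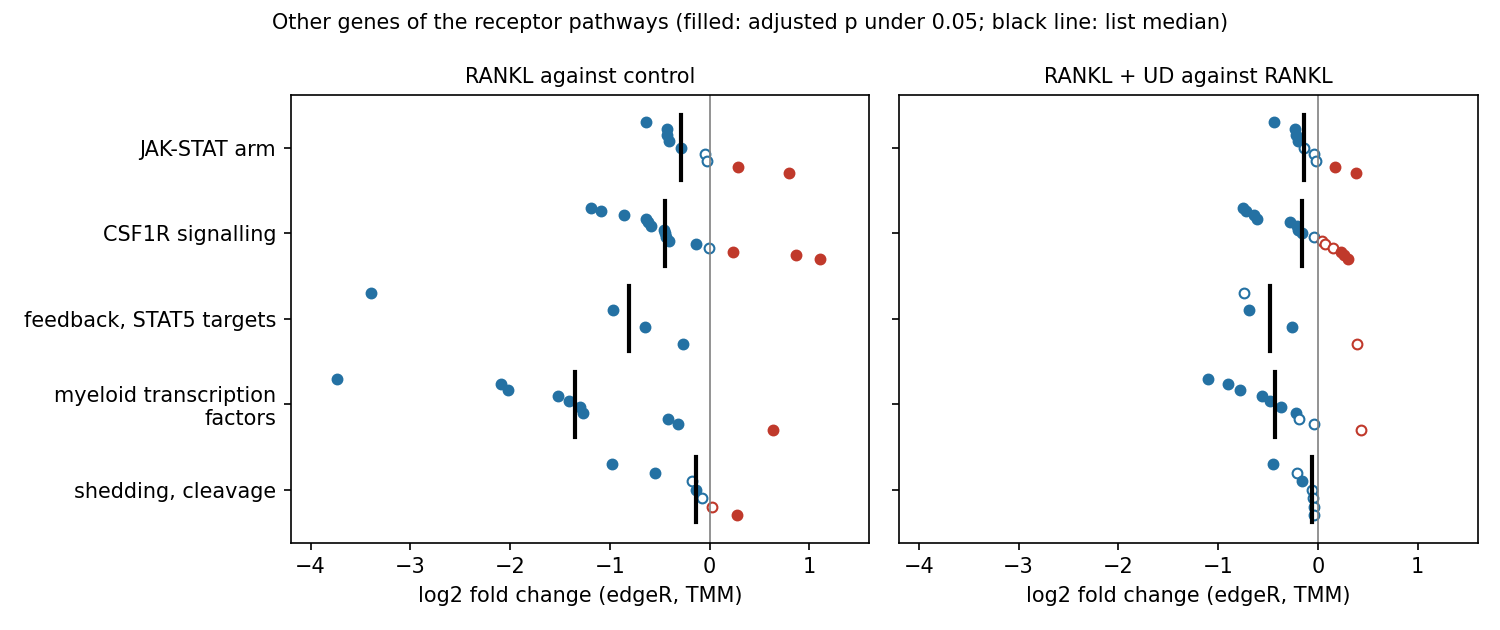
Log2 fold change (x axis, edgeR with TMM scaling) of each tested gene in 5 lists of receptor pathway genes, in RANKL against control (left) and RANKL + UD against RANKL (right). Each point is a gene, red above and blue below 0, filled where called at an adjusted p under 0.05, and black lines are list medians. Myeloid transcription factors have the lowest median on the left, at -1.35, and shedding genes lie nearest 0.

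The profile of each receptor gene over the 9 libraries was set beside those of all tested genes, as the root mean square difference of centred log2 CPM. Nearest to Csf1r were Bin2, Rab3d and Stk10 (0.0533, 0.0554 and 0.0560, where the profile of Csf1r itself spread by 0.465). Nearest to Csf2ra were Hdhd5, Inpp4a and Arhgef1 (0.0868 to 0.0925), and nearest to Csf2rb were Csnk1e, Myadm and Myo1g (0.0692 to 0.0730). Nearest to Csf2rb2 were Kdm5b, Bnip3l-ps and Dusp4 (0.0709, 0.0807 and 0.0841). In the order control, RANKL, RANKL + UD, the FPKM means of Kdm5b were 1.64, 3.83 and 2.07 and those of Dusp4 25.2, 56.9 and 31.9, while Bnip3l-ps is a pseudogene whose reads cannot be told from those of Bnip3l with certainty. Nearest to Csf3r were Tifa, Lrrc8c and Cd24a, at the looser distances of 0.252 to 0.273 around a profile spread of 1.13. All 9 libraries share the 3 groups, so likeness here is mainly likeness of group levels.

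In the pathway annotation of the table, all 5 receptor genes belong to cytokine-cytokine receptor interaction, with 91 tested genes. Csf2ra, Csf2rb, Csf2rb2 and Csf3r carry the JAK-STAT pathway, Csf1r and Csf3r the PI3K-Akt pathway, and Csf1r alone of the 5 carries osteoclast differentiation.

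Markers of the labelled cell type were present. The 6 macrophage markers summed to 9049 to 9599 FPKM in control, 2337 to 2585 in RANKL and 2045 to 2165 in RANKL + UD, the order of Csf1r. Most of that sum was Lyz2, with means of 8000, 1431 and 1285 FPKM. Of the 6, 5 fell and Cd68 rose in RANKL against control (0.60, edgeR adjusted p = 1.067e-08), and Adgre1 was the gene that rose in RANKL + UD against RANKL (0.22, edgeR adjusted p = 0.01424) while the other 5 fell. Of all tested genes 57.6% and 38.8% were called in these comparisons. The 7 osteoclast markers summed to 38.1 to 41.0, 2299 to 2500 and 1438 to 1466, with Calcr at 0 in control, the order of Csf2rb2. All 8 granulocyte markers were under 1 FPKM in every library, with summed levels of 0.18 to 0.27, 0.02 to 0.25 and 0.03 to 0.38 and with Ly6g, Ltf and S100a9 at 0, so the reads of Csf3r were measured where granulocyte genes were near 0. Lymphocyte, stromal and dendritic cell markers summed to at most 0.29, 0.95 and 1.5. The part of the shift from macrophage to osteoclast markers in the receptor levels was not tested. In RNA from whole cultures, fewer cells that express a receptor and less of its RNA per cell cannot be told apart.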

How the data were processed

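RNA-seq of poly(A)-selected RNA was measured in 9 libraries, and 18 value columns each matched 1 library. The authors deposited whole-number read counts per gene without normalization, and FPKM with 2 decimals made from those counts, exonic length and library total. FPKM recomputed this way matched within 0.01 for 100% of values. Aligner, counting tool and annotation are not given in the sources used here. The labels describe strand-specific libraries, but whether counting used strand is not stated. Per the labels the build is mm10.

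The 11995 genes that reached an FPKM of 1 in 3 or more libraries were tested with edgeR 4.0.16 in R 4.3.3, with TMM scaling (factors 0.959 to 0.962 in RANKL, 1.01 to 1.03 in the other groups), 1 quasi-likelihood fit of all 9 libraries (common dispersion 0.00401) and Benjamini-Hochberg adjustment over all tested genes. A call is an adjusted p under 0.05. In counts simulated for RANKL + UD against RANKL, 200 of 11995 genes were changed. Of these, 71% of 1.5-fold and 90% of 2-fold changes were recovered, with 7 false calls. The simulation gave all genes the same dispersion, higher than the common dispersion of the data, and changed fewer genes than were called. It checks that the test runs, and its rates are not those of the real comparison. Ratios within a library were tested by exact permutation in scipy 1.17.1. Intervals on FPKM are SDs over 3 libraries, and a count of 0 allows up to 3 reads.

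Alternatives were no filter, filterByExpr, DESeq2 1.42.0, limma 3.58.1 on log2(FPKM + 1) or log2(FPKM + 0.1), RLE size factors, total counts, a fit of only the 6 libraries compared, a block for the replicate number, the Csf2rb pair summed and each library left out. The receptor genes and the gene lists were chosen with earlier results of these data known. Genes named are the receptor genes, every ligand, partner chain and related kinase, the genes with the 2 largest rises and the 2 largest falls among calls of each other pathway list in the first 2 comparisons, and the 3 genes nearest to each receptor gene. Metabolite, protein and animal data were not analysed here. Single results for some genes that the naming rule picks are not reported here.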

Additional observations from a re-analysis of the deposited data

How the results depend on the processing

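Over 15 alternatives for each receptor gene and comparison, 223 of 225 values kept their side of the threshold, and no called value changed direction. The exceptions were Csf1r in RANKL + UD against RANKL with limma on log2(FPKM + 1) and on log2(FPKM + 0.1) (-0.148 and -0.149). With total counts edgeR gave -0.148 as well and kept the call. Why the calls were lost with limma was not tested. With Csf2rb and Csf2rb2 summed, 3 of 4 receptor features were called in RANKL against control in place of 5 of 5, since the sum did not change enough to be called. Among the other pathway genes, 17 in place of 28 were called in RANKL + UD against RANKL with limma on log2(FPKM + 0.1). Of the 5 ratios, 2 did not overlap between RANKL and control, and leaving out each library gave 2 to 4, with 4 when RANKL replicate 1 was left out. Of 9 pairs of libraries with the same replicate number, 3 had a correlation of deviations over 0.1 (-0.03 to 0.17). Pairs with different numbers ran from -0.18 to 0.11. These values do not settle whether the replicate numbers pair the libraries. With the number as a replicate block, 5, 3 and 5 receptor genes were called in the 3 comparisons, the same counts as without it. Depth limits Csf3r most, at 20 to 44 reads per RANKL or RANKL + UD library.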
